A study of Mus musculus with 8 samples.

Results

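The maternal mRNA storage, translation and decay factors described here are 10 genes: Ybx2, Cpeb1, Zar1, Zar1l, Pabpn1l, Eif4e1b, Eif4enif1, Btg4, Cnot6l and Zfp36l2. They were taken by symbol from the 21997 genes that the count tables of both follicle sources list, and all 10 were listed in both and passed the filter on low counts. Polyadenylated RNA was sequenced from single follicles of C57BL/6 mouse ovaries, in 4 groups of 2 libraries. SAF-TF were small antral follicles and PF-TF preantral follicles that had arisen after transplantation of female germline stem cells (FGSCs), the putative germline progenitors of the postnatal ovary. SAF-WT and PF-WT were small antral and preantral follicles of wild type mice. The sources used here do not state the donors, the transplant hosts or any treatment of them, the ages, or which mouse each follicle came from. The p-values therefore measure the spread between these single-follicle libraries only. The 2 follicles of a group may share a mouse, so the spread between mice may not be included. A follicle holds an oocyte and its granulosa cells, and needle separation can leave other tissue attached.

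A growing oocyte transcribes and stores mRNAs that it uses later, when its own transcription has stopped. Stored mRNAs are packed by RNA-binding proteins, kept with short poly(A) tails, and held from initiation at the cap. During meiotic maturation cytoplasmic polyadenylation switches some of them to translation. Most of the rest are then removed, largely by the CCR4-NOT complex, which shortens poly(A) tails after adaptor proteins bring it to its targets. YBX2, CPEB1, ZAR1 and ZAR1L belong to the packing and polyadenylation step, PABPN1L, EIF4E1B and EIF4ENIF1 bind the tail, the cap or the cap-binding protein, and BTG4, CNOT6L and ZFP36L2 act in deadenylation and decay.

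Total counts ran from 7656108 to 9805287 per library, and a count of 0 would allow up to 3 counts, or 0.306 to 0.392 CPM. No library had a count of 0 for any of the 10 genes. CPM are library-scaled counts with TMM factors, and levels of different genes were compared only as CPM per kb of transcript. The 15 oocyte markers summed to 338 to 648 CPM in SAF-TF, 21355 to 25826 CPM in PF-TF, 795 to 3867 CPM in SAF-WT and 10390 to 13097 CPM in PF-WT, with no marker at 0 in any library. SAF-WT replicate 2 stood apart from SAF-WT replicate 1, with 1.08 to 16.1 times its level of each oocyte marker (median 4.03). The 10 granulosa markers summed to 1716 to 2601 CPM in SAF-TF, 3654 to 3772 CPM in PF-TF, 642 to 773 CPM in SAF-WT and 2089 to 3280 CPM in PF-WT. The 4 luteal markers summed to 15564 to 20948 CPM in SAF-TF, against 199.6 to 205 CPM in SAF-WT. They summed to 18.3 to 23.6 CPM in PF-TF and 43.5 to 80.9 CPM in PF-WT, below both SAF-TF libraries.

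Small antral follicles were first set against preantral follicles within each source. In both sources, 9 of the 10 factors fell in SAF: Ybx2, Cpeb1, Zar1, Zar1l, Pabpn1l, Eif4e1b, Eif4enif1, Btg4 and Cnot6l. Zfp36l2 did not pass the test in either source. Among all 17925 genes tested, 25% were lower in SAF in the TF comparison and 22.5% in the WT comparison at an adjusted p below 0.05 (edgeR quasi-likelihood test, Benjamini-Hochberg over all genes). The median log2 fold change of the 10 factors was -5.51 in TF and -3.90 in WT, beside -0.08 and -0.20 over all genes. The same comparison gave 15 of 15 oocyte markers lower in SAF-TF (median log2 fold change -5.77) and 10 of 15 lower in SAF-WT (median -3.25). In a whole-follicle library, a smaller share of oocyte RNA and less of a transcript per oocyte cannot be told apart. Markers of other cells also moved with stage: the 5 stroma markers summed to 954 to 1453 CPM in SAF-TF, against 17.9 to 59.6 CPM in PF-TF, and to 1764 to 1956 CPM in SAF-WT, against 117 to 247 CPM in PF-WT. The luteal markers were also higher in SAF, at 15564 to 20948 CPM in SAF-TF against 18.3 to 23.6 CPM in PF-TF. In WT their rise was smaller, as given above. The granulosa markers given above were lower in SAF in both sources. The part of these marker sets in the stage effect was not tested. The scaling matters for the all-gene split: of the called genes, 42.1% were higher in SAF-TF with TMM factors and 56.2% with the authors' scale factors, which moved the median of all genes to 0.27. In WT the higher share was 36.0% with TMM factors and 53.5% with the authors' factors, with a median of 0.14.

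**Figure D1:**
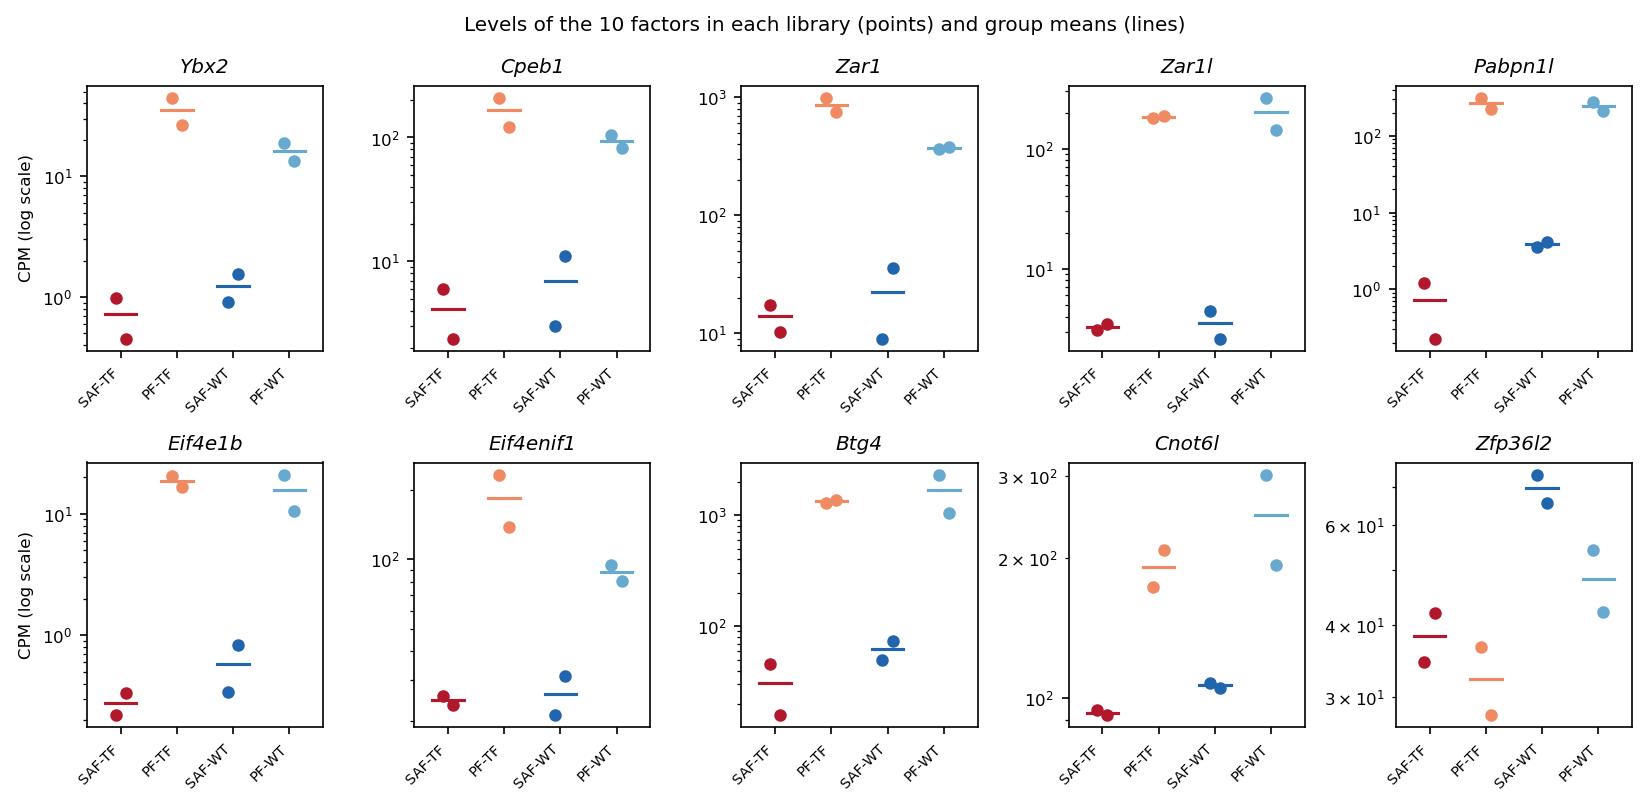
CPM (vertical axis, log scale) of the 10 factors in each library, with SAF-TF, PF-TF, SAF-WT and PF-WT from left to right; points are libraries and lines are means of 2 libraries. In 9 panels both SAF groups lie below both PF groups, whereas Zfp36l2 lies between 27.8 and 73.5 CPM in all 8 libraries.

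The mRNA-packing and polyadenylation factors were 12.9-fold to 62.2-fold lower in SAF than in PF. Ybx2 (chr11:69935805-69941604) encodes the germ-cell Y-box protein, also called MSY2, which coats and stabilises stored mRNAs. It had 0.990 and 0.451 CPM in SAF-TF, against 44.3 and 26.4 CPM in PF-TF. Wild type follicles had 0.918 and 1.54 CPM in SAF-WT, against 18.6 and 13.4 CPM in PF-WT. These SAF values rest on 4 to 13 counts a library, and no SAF library reached the lowest PF library. The log2 fold change was -5.58 ± 0.54 (SE) in TF (adjusted p = 6.69e-05), and -3.69 ± 0.50 in WT (adjusted p = 0.000600). Without SAF-TF replicate 1 the TF value was -6.24.

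Cpeb1 (chr7:81347026-81458001) encodes the protein that binds the cytoplasmic polyadenylation element (CPE) and sets when a stored mRNA gains its tail. It had 5.94 and 2.37 CPM in SAF-TF, against 208.0 and 122 CPM in PF-TF. In wild type follicles it had 2.98 and 11.02 CPM in SAF-WT, against 106 and 81.8 CPM in PF-WT. The 2 SAF-WT libraries differed 3.69-fold from each other, yet both lay below every PF library. Its log2 fold change was -5.31 ± 0.63 in TF (adjusted p = 0.000193) and -3.74 ± 0.58 in WT (adjusted p = 0.00125). Leaving out SAF-TF replicate 1 gave -6.11 in TF, and leaving out SAF-WT replicate 1 or replicate 2 gave -3.09 or -4.97 in WT.

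CPE letters were looked for in the members themselves, as TTTTAT or TTTTAAT in the last 100 bases of the 3′ UTR of each transcript on its own strand. They were found in 2 of the 9 members with a UTR long enough to scan, Ybx2 and Btg4, against 17.9% of 19343 genes. Both sites are shown because they are the only such letters in the scanned windows; capitals mark the match in GRCm38.
Ybx2: ctgaagccaTTTTATgaactgtca
Btg4: taaatccctTTTTATgtcttttta
The Ybx2 stretch is chr11:69941535-69941558 on the plus strand, its match 56 bases from the transcript end, and the Btg4 stretch is chr9:51119800-51119823 on the plus strand, 61 bases from the end. The AU-rich letters TATTTAT, the core bound by the ZFP36 family, were in none of the 9 windows, against 4.32% of genes. A poly(A) signal, AATAAA or ATTAAA, was in 7 of the 9, against 78.6%. The 2 members without it were Ybx2 and Btg4, so neither CPE match lay beside such a signal in its window. For Btg4 the scanned transcript stops short of the gene end given below, and the bases between were not scanned. These matches describe the sequence only, and the counts carry no measure of tail length or binding.

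Zar1 and Zar1l encode a pair of related zinc-finger proteins that bind mRNAs in oocytes, and ZAR1 is a maternal-effect factor, needed in the egg for the embryo to start development. Zar1 (chr5:72577113-72581361) had 17.5 and 10.3 CPM in SAF-TF, against 985 and 743 CPM in PF-TF. Zar1 in wild type follicles had 8.95 and 35.8 CPM in SAF-WT, against 365 and 379 CPM in PF-WT. SAF-WT replicate 2 held 3.999 times the level of replicate 1 and was still below PF. The log2 fold change of Zar1 was -5.96 ± 0.60 in TF (adjusted p = 8.28e-05) and -4.06 ± 0.55 in WT (adjusted p = 0.000624), and the WT value was -3.38 without SAF-WT replicate 1 and -5.38 without replicate 2.

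Zar1l (chr5:150507055-150518194) had 3.08 and 3.50 CPM in SAF-TF, against 178 and 188 CPM in PF-TF. Wild type values of Zar1l were 4.47 and 2.61 CPM in SAF-WT, against 264 and 143 CPM in PF-WT. Its log2 fold change was -5.80 ± 0.39 in TF (adjusted p = 1.83e-05) and -5.84 ± 0.39 in WT (adjusted p = 4.58e-05), with -5.21 in WT when PF-WT replicate 1 was left out. Its SAF-WT replicates ran the other way from those of Zar1, replicate 2 holding 0.583 times the level of replicate 1. Here and in the order of the factors below, levels of Zar1l per kb rest on a transcript of 895 bases. Its listed 3′ UTR has only 14 bases, and a longer one would lower these levels and raise the ratio of Zar1 to Zar1l. Per kb of transcript, the ratio of Zar1 to Zar1l was 3.56 and 1.84 in SAF-TF, against 3.46 and 2.47 in PF-TF. In wild type follicles the ratio was 1.25 and 8.60 in SAF-WT, against 0.867 and 1.65 in PF-WT, so the balance of the pair varied most between the 2 SAF-WT libraries.

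Zar1 and Zar1l encode related proteins, and their promoters are shown. Each is 300 bases around the first RefSeq start site listed for the gene in GRCm38.p6, minus strand. Capitals mark E-boxes (CANNTG) and the element of NOBOX, an oocyte homeobox factor (TAATTG or TAATTA on either strand). The Zar1 window is chr5:72581035-72581334 and the Zar1l window chr5:150518110-150518409.
Zar1: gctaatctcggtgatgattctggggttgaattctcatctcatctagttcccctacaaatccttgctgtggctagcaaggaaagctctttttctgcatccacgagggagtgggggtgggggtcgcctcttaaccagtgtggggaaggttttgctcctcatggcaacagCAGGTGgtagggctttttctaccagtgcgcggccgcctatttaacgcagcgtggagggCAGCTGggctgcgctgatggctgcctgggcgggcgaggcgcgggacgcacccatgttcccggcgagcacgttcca
Zar1l: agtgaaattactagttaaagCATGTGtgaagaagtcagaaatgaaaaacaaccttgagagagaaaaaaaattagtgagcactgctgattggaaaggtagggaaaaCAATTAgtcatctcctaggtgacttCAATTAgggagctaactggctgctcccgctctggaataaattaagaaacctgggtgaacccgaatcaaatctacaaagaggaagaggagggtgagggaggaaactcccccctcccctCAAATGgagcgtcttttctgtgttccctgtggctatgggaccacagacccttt
The Zar1 window holds 2 E-boxes and no NOBOX element. The Zar1l window holds 2 E-boxes and 2 NOBOX elements, which read as CAATTA on the printed strand. Only the first start site listed for each gene was scanned. The windows of Zar1, Cpeb1, Btg4 and Cnot6l lay wholly inside the gene positions given here. Among the 8 members with a promoter in the table, the NOBOX letters were in 1, against 12.6% of 27025 windows, and an E-box was in 7, against 72.1%. A TATAAA match was in 1 of the 8, against 14.2%. The transcription factors themselves were not measured on these windows.

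Among the tail-binding and cap-binding factors, Pabpn1l showed the largest stage effect of the 10. Pabpn1l (chr8:122619471-122622735) encodes an oocyte and early-embryo poly(A)-binding protein related to nuclear PABPN1. It had 1.21 and 0.226 CPM in SAF-TF, against 311 and 222 CPM in PF-TF, which are 11 and 2 counts against 2807 and 2210. In wild type follicles it had 3.56 and 4.15 CPM in SAF-WT, against 280.2 and 211 CPM in PF-WT. The PF libraries of the 2 sources overlapped, and SAF-TF replicate 2 was below the level of 3 counts. The log2 fold change was -8.50 ± 0.49 in TF (adjusted p = 1.78e-05) and -5.99 ± 0.42 in WT (adjusted p = 4.58e-05). From summed counts it was 365-fold lower in SAF-TF than in PF-TF, with a 95% exact interval for counting error alone of 213 to 686. The TF value was -10.11 without SAF-TF replicate 1 and -7.76 without SAF-TF replicate 2. In TF the lowest of the 15 oocyte markers was Padi6, at -6.73 ± 1.24, above the Pabpn1l value. In WT the lowest was Mos, at -5.71 ± 0.39. There Pabpn1l and Zar1l (-5.84 ± 0.39) lay below Mos by less than 1 SE, so neither could be separated from it. These differences from the markers were not tested.

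Eif4e1b (chr13:54783994-54788459) encodes a germline relative of the cap-binding protein eIF4E. It had 0.220 and 0.338 CPM in SAF-TF, against 20.4 and 16.6 CPM in PF-TF. Wild type follicles had 0.344 and 0.829 CPM in SAF-WT, against 21.0 and 10.5 CPM in PF-WT. The SAF values are 2 and 3 counts in SAF-TF and 3 and 7 in SAF-WT, so its level there was at the limit of this depth. The log2 fold change was -5.98 ± 0.64 in TF (adjusted p = 0.000113) and -4.72 ± 0.58 in WT (adjusted p = 0.000382). Summed counts gave a 66.0-fold lower level in SAF-TF than in PF-TF (95% exact interval 28.01 to 205), and a 26.3-fold lower level in small antral wild type follicles (14.1 to 55.5). Leaving out SAF-WT replicate 2 gave -5.46 in WT, and leaving out PF-WT replicate 1 gave -4.03.

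Eif4enif1 (chr11:3202343-3244588) encodes 4E-T, which binds eIF4E, blocks initiation and gathers in storage granules and processing bodies, also in somatic cells. It had 25.7 and 23.5 CPM in SAF-TF, against 233 and 137 CPM in PF-TF. It had 21.1 and 31.4 CPM in SAF-WT, against 94.5 and 81.0 CPM in PF-WT. All 4 SAF libraries lay close together, while PF-TF stood above PF-WT. Its log2 fold change was -2.91 ± 0.31 in TF (adjusted p = 0.000118) and -1.74 ± 0.30 in WT (adjusted p = 0.00220). Its position overlaps Sfi1, listed with 951 counts summed over the 8 libraries, and without a stated strand setting the reads of the overlap cannot be told apart. Cpeb1, Pabpn1l, Btg4 and Cnot6l overlap other annotated genes, which were not analysed here.

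Of the decay factors, Btg4 moved most, Cnot6l less and Zfp36l2 not past the threshold. Btg4 (chr9:51102147-51119924) encodes the adaptor that links CCR4-NOT to the translation machinery for maternal mRNA clearance. It had 45.9 and 15.8 CPM in SAF-TF, against 1299.7 and 1370.1 CPM in PF-TF. In wild type it had 50.2 and 74.3 CPM in SAF-WT, against 2322 and 1049.9 CPM in PF-WT. Every SAF library lay far below every PF library. The log2 fold change was -5.44 ± 0.57 in TF (adjusted p = 9.80e-05) and -4.76 ± 0.55 in WT (adjusted p = 0.000259). Without SAF-TF replicate 1 the TF value was -6.39, and without PF-WT replicate 1 the WT value was -3.96.

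Cnot6l (chr5:96070333-96164198) encodes a catalytic deadenylase subunit of CCR4-NOT that somatic cells also use. It had 94.4 and 91.9 CPM in SAF-TF, against 174 and 208 CPM in PF-TF. Wild type follicles had 108 and 105 CPM in SAF-WT, against 302 and 193 CPM in PF-WT. The replicates of both SAF groups nearly coincided, and all lay below PF. It was 2.05-fold lower in TF, a log2 fold change of -1.04 ± 0.24 (adjusted p = 0.00662), and 2.32-fold lower in WT, -1.22 ± 0.24 (adjusted p = 0.00407). The TF call was lost without PF-TF replicate 2 (-0.76, adjusted p = 0.0914) and with the authors' scale factors (-0.69, adjusted p = 0.0508). In the authors' deposited table, Cnot6l had a log2 fold change of -0.69 with an FDR of 0.000539 in TF and of -0.88 with an FDR of 0.480 in WT.

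Zfp36l2 (chr17:84183924-84187947) encodes a zinc-finger protein that binds AU-rich elements and recruits CCR4-NOT, in oocytes and in many somatic cells. It had 34.4 and 42.1 CPM in SAF-TF, against 36.7 and 27.8 CPM in PF-TF. In wild type it had 73.5 and 65.5 CPM in SAF-WT, against 54.2 and 42.3 CPM in PF-WT. The TF stages overlapped, whereas both SAF-WT libraries lay above both PF-WT libraries. Its log2 fold change was 0.25 ± 0.26 in TF (adjusted p = 0.467) and 0.53 ± 0.26 in WT (adjusted p = 0.139). With the authors' scale factors the WT value passed, at 0.87 (adjusted p = 0.0285). The authors' deposited table lists log2 fold changes of 0.61 in TF (FDR 0.0206) and 0.87 in WT (FDR 9.60e-09).

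The non-overlap of libraries gave the same split of the 10. Both libraries of SAF-TF lay below both of PF-TF for 9 factors and for 39.5% of all genes. Both of SAF-WT lay below both of PF-WT for 9 factors and for 40% of all genes, and above them for Zfp36l2 and for 30.9% of all genes. In the authors' deposited table, the 8 factors other than Cnot6l and Zfp36l2 were listed as lower in SAF in both sources, with FDR of 0.00121 at most. That table lists 16.7% of its genes in TF and 14% in WT as lower at an FDR below 0.05.

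**Figure D2:**
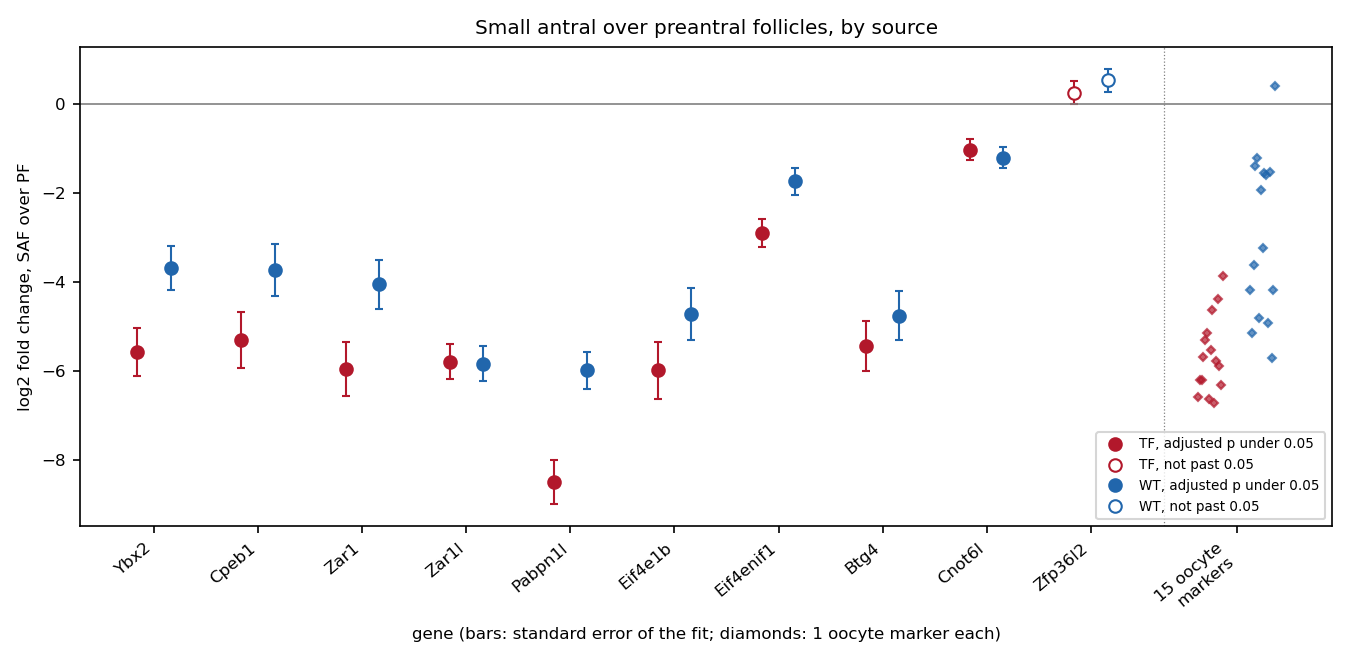
Log2 fold change of SAF over PF (vertical axis) for the 10 factors and, at the right, for 15 oocyte markers, in TF (red) and WT (blue); circles are fitted values, bars their standard errors, diamonds single markers. Pabpn1l in TF, at -8.50, lies lowest; the open circles of Zfp36l2, at 0.25 and 0.53, did not pass the threshold.

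Per kb of transcript, the order of the factors differed between the stages. In small antral follicles Btg4 had the highest mean, 20.7 ± 14.3 CPM per kb in SAF-TF and 41.9 ± 11.4 in SAF-WT. In SAF-TF, Cnot6l (10.9 ± 0.202 CPM per kb), Zfp36l2 (10.8 ± 1.53), Zar1 (9.71 ± 3.58) and Eif4enif1 (6.69 ± 0.438) followed, each within the larger SD of its neighbour, and Btg4 itself within its own SD of Cnot6l. In SAF-WT, the SD of Zar1 (15.7 ± 13.3 CPM per kb) took in Zfp36l2 (19.7 ± 1.61), Cnot6l (12.4 ± 0.187), Eif4enif1 (7.14 ± 1.98) and Zar1l (3.96 ± 1.48). By library, Zfp36l2 lay above Cnot6l, Cnot6l above Eif4enif1 and Eif4enif1 above Zar1l, without overlap. Pabpn1l had 0.625 ± 0.606 CPM per kb in SAF-TF and 3.36 ± 0.364 in SAF-WT. In SAF-TF, Zar1l (3.67 ± 0.329 CPM per kb) and Cpeb1 (1.34 ± 0.812) had higher means, Cpeb1 within its spread, and in SAF-WT, Cpeb1 (2.25 ± 1.83) stood below it within its spread. Ybx2 and Eif4e1b had the lowest means in both SAF groups, 0.431 and 0.131 CPM per kb in SAF-TF and 0.735 and 0.275 in SAF-WT. Ybx2 lay within the SD of Pabpn1l in SAF-TF and of Cpeb1 in SAF-WT.

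In preantral follicles Btg4 again had the highest mean, 898 ± 33.5 CPM per kb in PF-TF and 1135 ± 605 in PF-WT (SD, n = 2). Next in PF-TF came Zar1 (605 ± 119 CPM per kb) and then Pabpn1l (232 ± 54.9) and Zar1l (205 ± 7.93), the last pair within the larger SD. In PF-WT, Zar1l (228 ± 95.2 CPM per kb) could not be separated by its spread from Zar1 (260.2 ± 6.61) or Pabpn1l (214 ± 42.7). Both Zar1 libraries lay above both Pabpn1l libraries. Cpeb1 and Eif4enif1 followed in PF-TF, at 53.1 ± 19.4 and 50.4 ± 18.4 CPM per kb, and Cpeb1, Cnot6l and Eif4enif1 in PF-WT, at 30.1 ± 5.41, 28.9 ± 8.93 and 23.9 ± 2.60. The lowest preantral levels were those of Cnot6l, Ybx2, Zfp36l2 and Eif4e1b in PF-TF, 22.3 to 8.67 CPM per kb, of which Cnot6l and Ybx2 lay within their spread and so did Zfp36l2 and Eif4e1b. In PF-WT, Zfp36l2, Ybx2 and Eif4e1b came last at 13.7, 9.59 and 7.40 CPM per kb, with Ybx2 and Eif4e1b within their spread.

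Across the 8 libraries, 9 of the factors followed each other. The Pearson correlation of log2 CPM with the mean of the other 9 was 0.92 to 0.99 for these and -0.39 for Zfp36l2; the points are the same 8 libraries, which mostly differ by stage, and the values are a description. By the same measure, the 5 genes most like the mean of the factors, among 10236 candidates, were Igf2bp2 (r = 0.999), Zmat4, Pramef12, Zdhhc13 and Crnkl1 (each 0.997). Igf2bp2, which encodes an mRNA-binding protein of the IMP family, averaged 5.50 CPM in SAF-TF and 111 CPM in PF-TF. In wild type it averaged 11.4 CPM in SAF-WT and 93.3 CPM in PF-WT.

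Set against the oocyte markers of the same library, the factors did not all keep a constant ratio. As log2 of a factor's count over the summed count of the 15 markers, the SAF minus PF difference had a median over the 10 factors of 0.06 in TF and -1.45 in WT, with no test. Pabpn1l had the lowest difference in both, -3.13 in TF and -3.23 in WT, and Zar1l had -0.13 in TF and -3.07 in WT. In WT Pabpn1l and Zar1l could not be separated, since the SD of the SAF-WT ratio was 1.46 for Pabpn1l and 2.15 for Zar1l. Cnot6l (4.62 in TF, 1.55 in WT), Zfp36l2 (5.90, 3.27) and Eif4enif1 (2.79, 0.97) had positive differences. Somatic cells also use these genes, so their ratios cannot be read as shares of oocyte RNA, and they enter the medians. Ybx2, Btg4 and Cpeb1 lay at 0.09, 0.02 and 0.26 in TF and at -0.94, -1.94 and -1.27 in WT. The WT differences rest on SAF-WT libraries whose marker sums differed widely, as given above; with Gdf9 and Bmp15 alone as markers, the medians were 0.86 in TF and 0.43 in WT.

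Relatives of the factors that somatic cells use were read from the same libraries. Of 15 paralogues in 7 families, a set chosen after values had been seen, 7 rose and 2 fell in SAF-TF relative to PF-TF, and 4 rose and 1 fell in SAF-WT relative to PF-WT. Over all genes 18.2% rose and 25% fell in TF, and 12.7% rose and 22.5% fell in WT. In TF the 7 were Ybx1, Btg1, Btg2, Btg3, Eif4e2, Zfp36 and Zfp36l1, of which Btg3 and Eif4e2 were lost without SAF-TF replicate 1 (adjusted p = 0.198 and 0.123) and without 4 or more other single libraries. Zfp36 was lost without SAF-TF replicate 1 (adjusted p = 0.182) or PF-TF replicate 2 (adjusted p = 0.0866). In WT the 4 were Btg1, Btg3, Cpeb2 and Zfp36l1, and Btg3 and Cpeb2 were lost without SAF-WT replicate 1 (adjusted p = 0.136 and 0.173) and without 4 or more others. Ybx1, the broadly expressed Y-box protein, had 781 ± 0.472 CPM per kb in SAF-TF, against 220.3 ± 31.3 in PF-TF, where Ybx2 had 0.431 ± 0.228 and 21.1 ± 7.57. Ybx1 had 378 ± 10.3 CPM per kb in SAF-WT, against 396 ± 8.38 in PF-WT, a log2 fold change of -0.07 that turned positive under 4 alternatives. Ybx3, a further Y-box protein, fell in both, with log2 fold changes of -1.07 in TF and -1.12 in WT; without PF-TF replicate 1 the TF call was lost (adjusted p = 0.0843), and without SAF-WT replicate 1 the WT call (adjusted p = 0.0509). Of the BTG proteins, which bind the CAF1 deadenylase, Btg1 rose by 1.25 in TF and 1.44 in WT, while Btg4 fell. Zfp36l1, the nearest relative of Zfp36l2, rose by 1.92 in TF and 1.82 in WT. Pabpn1 (0.22 in TF, 0.16 in WT) and Cnot6 (0.47, 0.39) did not pass the test in either source. Cnot6 passed with the authors' scale factors (0.82 in TF, adjusted p = 0.0238, and 0.73 in WT, adjusted p = 0.0448) and in TF without PF-TF replicate 2 (adjusted p = 0.0418). Pabpn1 turned negative in TF without SAF-TF replicate 2 or PF-TF replicate 1.

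**Figure D3:**
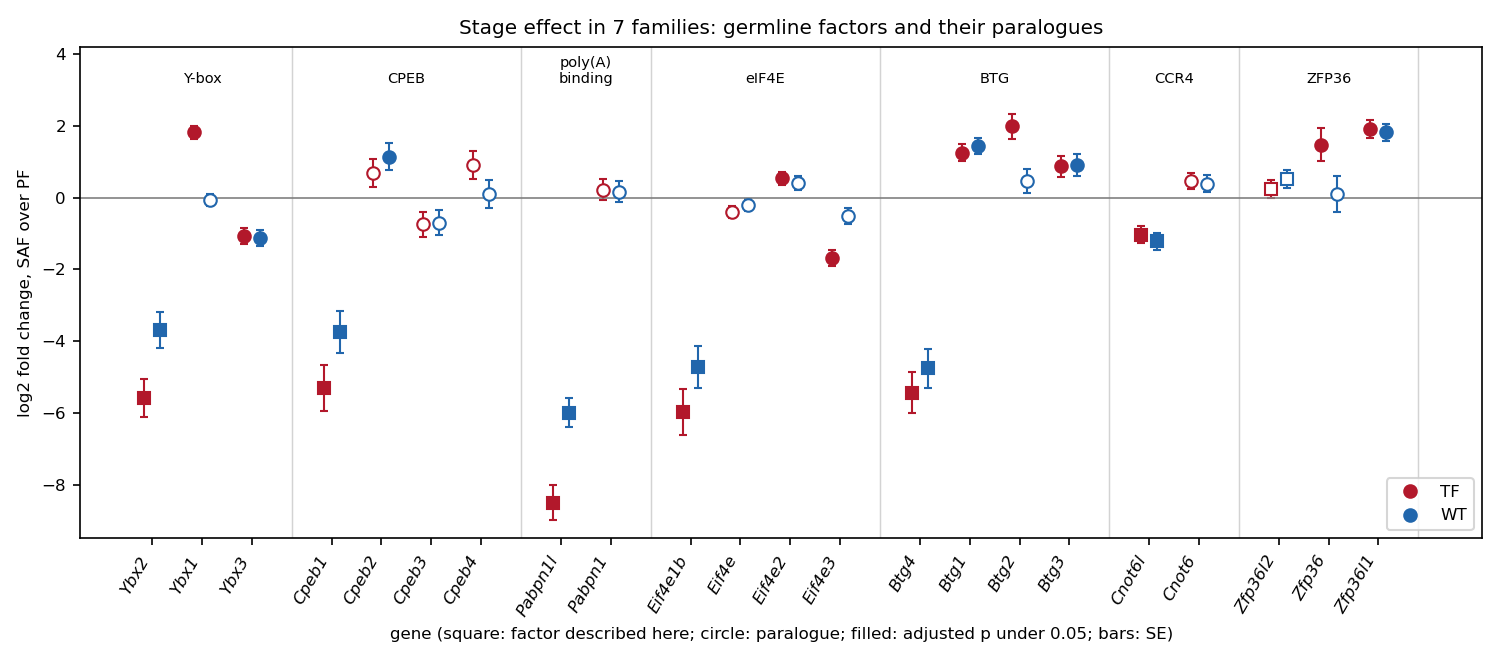
Log2 fold change of SAF over PF (vertical axis) for 7 of the factors (squares) and 15 paralogues (circles), by family, in TF (red) and WT (blue); bars are standard errors and filled symbols passed an adjusted p of 0.05. The squares of Ybx2, Cpeb1, Pabpn1l, Eif4e1b and Btg4 lie between -8.50 and -3.69, below every paralogue of their family.

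A wider list of 73 regulators of masking, cap and poly(A) binding, deadenylation and decay, none of them among the 10, was described with the same fit. In TF 9 of the 73 rose and 24 fell (median log2 fold change -0.34), and in WT 7 rose and 22 fell (median -0.43). Over all genes 18.2% were called higher and 25% lower in TF, and 12.7% higher and 22.5% lower in WT. Of the 25 masking and polyadenylation genes, 1 rose and 9 fell in TF, and 2 rose and 10 fell in WT. Dazl, the germ-cell RNA-binding protein that promotes translation, fell in both, with log2 fold changes of -4.92 in TF and -3.43 in WT; without SAF-WT replicate 2 the WT value was -4.07. Igf2bp2 fell in both, with -4.33 in TF and -3.03 in WT, as did Lsm14b, an oocyte RNP protein, with -3.56 in TF and -3.15 in WT. Of the 18 cap and poly(A) genes, 3 rose and 5 fell in TF and 2 rose and 5 fell in WT, among them Paip2, an inhibitor of PABP, which rose by 0.65 in WT but not past the threshold without SAF-WT replicate 1 (adjusted p = 0.200) or PF-WT replicate 2 (adjusted p = 0.0863). Of the 30 deadenylation and decay genes, 5 rose and 10 fell in TF and 3 rose and 7 fell in WT. Cnot11, a CCR4-NOT subunit, fell in both, with -3.02 in TF and -2.95 in WT, whereas Btg2 rose by 1.99 in TF.

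Preantral follicles were then compared between the sources, with the same libraries as above. None of the 10 factors passed the test between PF-TF and PF-WT, where 39 of all genes tested did (0.218%). At an unadjusted p below 0.05 there were 4 of the 10 factors, Ybx2, Zar1, Eif4enif1 and Zfp36l2, beside 20.7% of all genes. DESeq2 called 1, Eif4enif1, beside 7.38% of all genes. Eif4enif1 had a mean of 185 ± 67.6 CPM in PF-TF, against 87.8 ± 9.57 CPM in PF-WT (SD, n = 2 each), a log2 fold change of 1.08 ± 0.29 (adjusted p = 0.0894; 0.0293 with DESeq2). Zar1 had 1.22 ± 0.49 (adjusted p = 0.196), Ybx2 1.14 ± 0.41 (adjusted p = 0.160) and Cpeb1 0.82 ± 0.51 (adjusted p = 0.392). For Eif4enif1, Zar1, Ybx2 and Cpeb1, both PF-TF libraries lay above both PF-WT libraries, as they did for 22.9% of all genes. For Zfp36l2 both lay below (-0.58 ± 0.26, adjusted p = 0.239), as for 26.1%. Zar1l, Pabpn1l, Eif4e1b, Btg4 and Cnot6l overlapped, with log2 fold changes of -0.37 to 0.23. The oocyte markers had positive values for 14 of 15, 12 of them without overlap, and a median of 1.06, and none passed the test; their part in the values above was not tested. None of the 73 genes of the wider list passed with edgeR either, 13 had an unadjusted p below 0.05, and DESeq2 called 7, to be read against the same 20.7% and 7.38% of all genes.

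Small antral follicles were compared between the sources in the same way. Only Pabpn1l fell in SAF-TF relative to SAF-WT, 1 factor of 10, where 5.34% of all genes were called lower and 9.96% called in either direction. Its 1.21 and 0.226 CPM in SAF-TF stand against 3.56 and 4.15 CPM in SAF-WT, without overlap. Summed counts were 13 in SAF-TF and 66 in SAF-WT, a 5.31-fold lower level with a 95% exact interval of 2.90 to 10.5 for counting error alone. The log2 fold change was -2.39 ± 0.53 (adjusted p = 0.0244). The value was -1.65 without SAF-TF replicate 2 (adjusted p = 0.0757), -2.50 without SAF-WT replicate 1 (0.0979) and -2.28 without SAF-WT replicate 2 (0.0981), while without SAF-TF replicate 1 it was -4.004 (0.0302). Of the 15 oocyte markers, 14 had negative values and 3 fell past the threshold, with a median of -1.46, and their part in the Pabpn1l value was not tested. The luteal markers given above also separated these groups, and their part was not tested either.

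All other factors had negative log2 fold changes that did not pass. Zfp36l2, at 38.2 ± 5.404 CPM in SAF-TF and 69.5 ± 5.67 CPM in SAF-WT, came nearest, with -0.86 ± 0.26 (adjusted p = 0.0628), and passed with DESeq2 (adjusted p = 0.029), which called 15.9% of all genes. Btg4 had -1.01 ± 0.48 (adjusted p = 0.200) and Eif4e1b -1.03 ± 0.79 (adjusted p = 0.425), on 5 counts in SAF-TF and 10 in SAF-WT. Ybx2, Cpeb1 and Zar1 lay between -0.75 and -0.69, and Cnot6l, Zar1l and Eif4enif1 between -0.19 and -0.09. For 5 factors the SAF-TF libraries lay below the SAF-WT libraries without overlap, as for 32.5% of all genes. The signs of Cpeb1, Zar1 and Eif4enif1 depended on SAF-WT replicate 2, without which they were 0.48, 0.63 and 0.22. That of Zar1l was 0.33 without SAF-WT replicate 1. As log2 ratios to the 15 oocyte markers, all factors but Pabpn1l were higher in SAF-TF than in SAF-WT, with no test. These differences had a median of 1.21 and ran from -0.80 for Pabpn1l to 1.85 for Zar1l. With Gdf9 and Bmp15 alone as markers the median was -0.094, so the sign depended on the markers. Of the 73 genes of the wider list, 3 rose, Ybx1 (1.05), Zfp36 (2.55) and Btg2 (1.30), where 4.61% of all genes did so, and 3 fell, Eif4e3 (-1.09), Lsm14a (-0.93) and Dazl (-1.38). All 6 calls were lost without SAF-TF replicate 1 (adjusted p = 0.0799 to 0.341) and without SAF-WT replicate 2 (adjusted p = 0.0562 to 0.201).

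**Figure D4:**
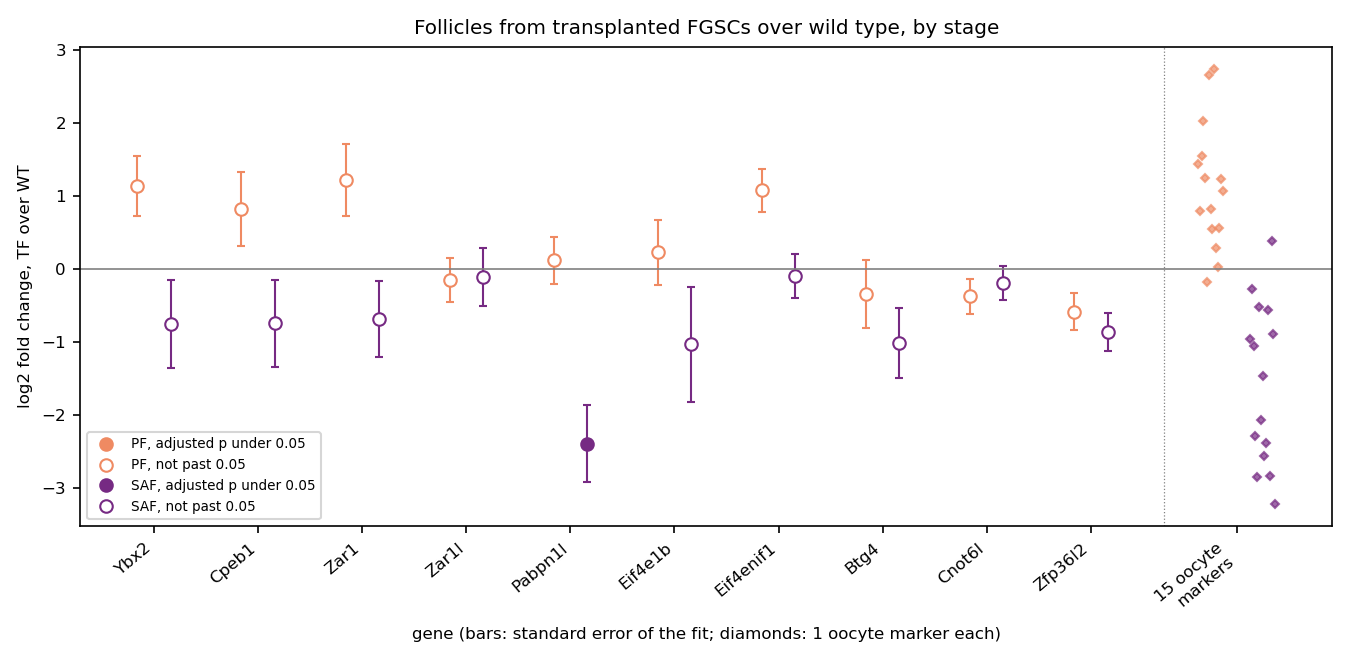
Log2 fold change of TF over WT (vertical axis) for the 10 factors and 15 oocyte markers, in PF (orange) and SAF (purple); circles are fitted values, bars standard errors, diamonds single markers. Among the circles, that of Pabpn1l in SAF, at -2.39, is the only filled one; the diamonds do not show the threshold, which 3 markers passed in SAF.

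The difference between the stage effects of TF and WT was tested directly, and it uses the same 8 libraries as the comparisons above. None of the 10 factors passed, where 0.904% of all genes did; 4 had an unadjusted p below 0.05, beside 15.4% of all genes, and DESeq2 called 1, Pabpn1l (adjusted p = 0.00378), beside 4.52% of all genes. Pabpn1l had -2.51 ± 0.62 on the log2 scale (adjusted p = 0.0983), that is, a larger fall in TF than in WT by that estimate. Zar1 had -1.90 ± 0.71 (adjusted p = 0.237), Ybx2 -1.89 ± 0.72 (adjusted p = 0.254), Cpeb1 -1.56 ± 0.78 (adjusted p = 0.387) and Eif4enif1 -1.17 ± 0.42 (adjusted p = 0.221). Without SAF-WT replicate 1, Zar1 passed at -2.58 (adjusted p = 0.0421). Zar1l (0.04 ± 0.51) and Cnot6l (0.18 ± 0.33) were nearest to no difference, and Eif4e1b, Btg4 and Zfp36l2 had -1.26, -0.68 and -0.28. The median over the 10 was -1.22, and that of the 15 oocyte markers, all negative, was -2.60, beside 0.06 over all genes. Ybx1 was the only gene of the wider list that passed, at 1.90 ± 0.25 (adjusted p = 0.0136), and it was lost without SAF-WT replicate 2 (adjusted p = 0.0776).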

How the data were processed

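Polyadenylated RNA of 8 single follicles was amplified (SMARTer Ultra Low Input), per the labels' protocols, and aligned with HISAT2 2.0.1 to GRCm38, per the submitters' processing notes. The sources used here do not state the counter, annotation or strand setting. For each follicle source the authors deposited 1 table with raw counts per gene and library, per the file headers. The deposited normalized columns are a signal, group means of counts after 1 scale factor per library. The authors' log2 columns are log2 fold changes of SAF over PF, and their FDR column holds adjusted p-values from an unnamed test.

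Counts of the 21997 genes in both tables were fitted together (22129 were listed for TF and 22138 for WT). filterByExpr (min.count 10, min.total.count 15) left 17925 genes. The edgeR 4.0.16 quasi-likelihood test (R 4.3.3) used TMM factors and 4 group means, with 4 residual degrees of freedom and a common biological coefficient of variation of 0.303. Benjamini-Hochberg adjustment ran over every tested gene, at a threshold of 0.05; SE is the log2 fold change over the square root of F. Alternatives were RLE factors, the authors' scale factors, no filter, a filter of 10 CPM in 2 libraries, DESeq2 1.42.0, a replicate block, only the 4 libraries compared, and each library left out. The script was tested on simulated data.

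Intervals and floors cover only counting error, because no molecular identifiers mark independent molecules. Transcript lengths and UTRs came from GENCODE M21 basic transcripts (principal or longest), promoters and gene positions from RefSeq GRCm38.p6; 8 of the 10 factors had a promoter there. Likeness used log2 CPM with a prior count of 2. The members and lists were chosen with earlier results of these data known. Named genes were all 10 members, up to 3 of the wider list per direction and comparison by smallest p, and the 5 genes most like the members; paralogues were added after values were seen. Igf2bp1 of the wider list was not analysed here.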

Additional observations from a re-analysis of the deposited data

How the results depend on the processing

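Of the stage effects, 8 factors kept their call in TF and in WT under all 15 alternatives each; Cnot6l did so in WT only, and Zfp36l2 stayed below the threshold except with the authors' scale factors in WT. Leaving out single libraries gave 5136 to 8166 called genes for the stage effect in TF and 3075 to 6594 in WT, where the wider list had 17 to 27. With 2 libraries a group, such a fit leaves 1 group with a lone library assumed to vary like the others.

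For the source effect in PF, 207 genes were called with no low-count filter, 1322 with DESeq2, 6 with the replicate block, 3 with only the 4 libraries compared, and 1 to 935 without single libraries; DESeq2 called 1 factor and 7 of the wider list, which had 0 to 3 without single libraries. For the source effect in SAF, DESeq2 called 2849 genes, the replicate block 1069, and the 4 libraries alone 3921, with 143 to 2468 without single libraries. The factors called there were 2 with DESeq2 and with the 4 libraries alone, and 0 to 2 without single libraries. The wider list had 11 with DESeq2, 3 with the replicate block, 13 with the 4 libraries alone and 0 to 9 without single libraries. For the interaction, DESeq2 called 810 genes, the replicate block 74, and fits without single libraries 28 to 343; 1 factor and 2 of the wider list passed with DESeq2, and 0 to 1 factor and 0 to 2 of the wider list without single libraries. Correlations of replicate deviations between groups ran from -0.12 to 0.113, so the replicate numbers showed no pairing of the libraries. Differences between single follicles can mask a shared mouse or batch, so these values cannot exclude pairing. With the block the factors called stayed at 9, 9, 0, 1 and 0.

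Against Gdf9 and Bmp15 alone, the median marker-relative difference of the factors was 0.86 for stage in TF, 0.43 for stage in WT, -1.02 for source in PF and -0.094 for source in SAF, beside 0.06, -1.45, -0.80 and 1.21 with 15 markers; the cause was not tested.

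Signs reversed only in values below the threshold. Over the fits without single libraries, the PF source effect ran from -0.80 to 0.39 for Btg4, -0.66 to 0.027 for Cnot6l, -0.52 to 0.40 for Zar1l, -0.18 to 0.85 for Eif4e1b and -0.17 to 0.38 for Pabpn1l. The SAF source effect ran from -1.55 to 0.48 for Cpeb1, -1.37 to 0.63 for Zar1, -0.35 to 0.22 for Eif4enif1 and -0.44 to 0.33 for Zar1l. The interaction ran from -0.17 to 0.46 for Cnot6l, -0.46 to 0.48 for Zar1l and -0.46 to 0.010 for Zfp36l2. Among paralogues, the WT stage effect of Eif4e was 0.14 with the authors' factors. That of Ybx1 was 0.085 with RLE factors and with DESeq2, 0.27 with the authors' factors and 0.067 without PF-WT replicate 1, and that of Zfp36 ran from -0.020 to 0.29 without single libraries. The TF stage effect of Pabpn1 ran from -0.10 to 0.81 without single libraries. Depth limits Eif4e1b, Ybx2 and Pabpn1l in SAF, where some libraries held 2 to 13 counts.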
